A study of Mus musculus with 2 samples.

Results

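Levels of 10 nuclear receptor genes were described in RNA of the nucleoplasmic fraction of mouse macrophages. The 10 genes are the NR4A genes Nr4a1, Nr4a2 and Nr4a3, the liver X receptor genes Nr1h2 and Nr1h3, the peroxisome proliferator-activated receptor genes Pparg and Ppard, the retinoid X receptor genes Rxra and Rxrb, and the glucocorticoid receptor gene Nr3c1. They were taken by gene name from a list of receptors with known roles in macrophages. No rule on their values was used, but earlier results of these data were known when they were chosen. They are 10 of the 55536 annotated genes and 81 of the 141767 annotated transcript models compared. The macrophages were grown from bone marrow of strain C57BL/6J, received Lipid A at 100 ng/ml for 40 min, and were sequenced as total RNA after depletion of ribosomal RNA. The 1 group had 2 libraries, biological replicates 1 and 2, made from 1 µg and 500 ng of RNA. Both carry the same donor identifier, so their spread may hold less than the spread between animals, and replicate and RNA input cannot be told apart. Sex and age were not collected per the labels. Other fractions, other times and macrophages without Lipid A were not analysed here, so every value is a level after Lipid A and not a response to it, and no test between conditions was possible.

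Nuclear receptors are transcription factors that bind DNA and, for many of them, a small lipophilic ligand. NR4A proteins act as immediate-early transcription factors whose genes respond rapidly to many stimuli and which are not known to need a ligand. Liver X receptors sense oxysterols and switch on genes for cholesterol export, PPARs sense fatty acids, and both bind DNA as partners of a retinoid X receptor, while the glucocorticoid receptor binds steroid hormone in the cytosol and represses many inflammatory genes.

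The libraries held 19630046 expected counts in replicate 1 and 18434601 in replicate 2. Levels are given as TPM, an abundance of transcripts that is corrected for length, scaled to 1 fixed total per library and so comparable between genes, which the authors estimated from alignments to annotated transcripts. A second, FASTQ-derived estimate by the authors is plotted for all 10 genes and given in the text for several results. The macrophage label held up against its markers: all 10 listed macrophage markers were detected, at summed levels of 3555 and 2370 TPM. Of all 22028 protein-coding genes 8810 were detected, meaning at least 1 TPM in both libraries, and 7403 had 0 counts in both. Of 35 markers of T cells, B cells, neutrophils, dendritic cells, fibroblasts, adipocytes and endothelial cells, 2 were detected and 13 had 0 counts in both libraries. These 2 were Cd4, at 22.2 and 16.1 TPM beside 0 counts of the T cell receptor complex genes Cd3e and Cd3g, and Kdr, at 3.78 and 2.11 TPM. The adipocyte markers, which matter for Pparg, summed to 0.19 and 0.13 TPM, and the defining genes Adipoq, Plin1, Cidec and Lep had 0 counts.

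The start regions of the NR4A genes are shown first, because these 3 genes share a receptor family, a pattern of short recurring letters in their promoters and yet very unequal levels. Each line is the RefSeq window from 250 bases before to 50 bases after a gene's start (build GRCm38.p6, the assembly also called mm10), on the gene's own strand. Capitals mark the letters TGACG, the core of the element bound by CREB-family factors, and TATAAA, the TATA box, in either orientation. The windows lie at chr15:101266596-101266895 on the plus strand for Nr4a1, chr2:57123954-57124253 on the minus strand for Nr4a2 and chr4:48045055-48045354 on the plus strand for Nr4a3.
Nr4a1: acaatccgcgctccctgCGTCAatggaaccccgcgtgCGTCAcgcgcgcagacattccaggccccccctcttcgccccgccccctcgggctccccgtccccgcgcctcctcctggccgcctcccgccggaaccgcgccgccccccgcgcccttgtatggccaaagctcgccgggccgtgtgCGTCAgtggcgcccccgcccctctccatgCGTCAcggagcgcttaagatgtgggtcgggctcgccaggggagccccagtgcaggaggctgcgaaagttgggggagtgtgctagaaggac
Nr4a2: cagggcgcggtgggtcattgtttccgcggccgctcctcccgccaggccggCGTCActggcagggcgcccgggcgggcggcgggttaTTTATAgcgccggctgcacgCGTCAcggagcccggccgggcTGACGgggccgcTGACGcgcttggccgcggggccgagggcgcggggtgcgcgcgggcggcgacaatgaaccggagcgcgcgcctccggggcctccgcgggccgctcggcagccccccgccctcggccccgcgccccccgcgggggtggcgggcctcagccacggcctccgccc
Nr4a3: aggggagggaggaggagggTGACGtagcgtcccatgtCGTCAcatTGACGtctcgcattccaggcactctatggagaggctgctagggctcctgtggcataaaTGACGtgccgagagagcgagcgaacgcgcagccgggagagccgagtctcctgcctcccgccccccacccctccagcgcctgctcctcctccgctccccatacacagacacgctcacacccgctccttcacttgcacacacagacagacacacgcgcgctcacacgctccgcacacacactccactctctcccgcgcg

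Each of the 3 windows held 4 matches to TGACG on either strand. In Nr4a1 their first bases lay at positions -233, -213, -69 and -40, counted from the start site with the base before it at -1. They lay at -200, -144, -123 and -111 in Nr4a2, and at -231, -213, -205 and -147 in Nr4a3. Of 32544 RefSeq mouse promoter windows of the same length, 20.9% held the letters at least once and 76 (0.234%) held them at least 4 times. The full palindrome TGACGTCA, which contains TGACG on both strands, was in none of the 3 windows and in 1.80% of all windows. TATAAA was in the Nr4a2 window alone of the 3, at -164, and in 13.6% of all windows. Such matches describe letters and do not show that a factor was bound. The Nr4a1 window starts where the models Nr4a1-201 and Nr4a1-203 start. The Nr4a2 window lies at the upstream start of Nr4a2-206 and Nr4a2-203, while the leading coding model Nr4a2-201 starts further downstream, outside it. In the Nr4a3 window Nr4a3-201 starts 152 and Nr4a3-204 74 bases before the RefSeq start, so the match at -147 lies within Nr4a3-201.

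By alignment-based TPM, Nr4a1 was the most abundant of the 10 genes and of all 49 nuclear receptor genes of the mouse that were listed. Its level was 99.9 TPM in replicate 1 and 74.9 TPM in replicate 2 (87.4 ± 17.6, SD, n = 2; ENSMUSG00000023034, chr15:101254269-101274795). The credibility intervals deposited with these values ran from 90.5 to 99.8 TPM in replicate 1 and from 69.5 to 76.0 TPM in replicate 2. They are centred on a posterior mean, and the TPM of replicate 1 lay just above its interval. Nr4a1 stood at percentile 95.1 of the detected protein-coding genes, whose median was 7.42 TPM and whose 90th percentile was 45.9 TPM. By FASTQ-derived TPM, at 69.0 and 70.7, Nr4a1 led the 10 genes but stood below the orphan receptor gene Esrrg in replicate 2. The product of Nr4a1 is also known as Nur77. In bulk RNA, more cells with a transcript and more transcript per cell cannot be told apart.

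The other NR4A genes were far lower. Nr4a3 (ENSMUSG00000028341, chr4:48045153-48086447), which encodes NOR-1, had 4.02 TPM in replicate 1 and 2.98 TPM in replicate 2, from 233 and 300 expected counts. Nr4a2 (ENSMUSG00000026826, chr2:57106830-57124003), which encodes Nurr1, had 1.71 TPM in replicate 1 and 2.01 TPM in replicate 2, from 110 and 148 expected counts. Nr4a1 thus made up 94.6% and 93.8% of the summed NR4A level of 105.59 and 79.89 TPM. The ratio of Nr4a1 to Nr4a3 was nearly the same in both libraries, 24.8 and 25.1. That of Nr4a1 to Nr4a2 was 58.4 and 37.3, and it depended on the estimate, since the FASTQ-derived tables gave 24.9 and 14.4. The credibility interval of Nr4a2 was wide, from 1.47 to 9.55 TPM in replicate 1 and from 1.72 to 12.4 TPM in replicate 2. In the FASTQ-derived tables Nr4a2 had 2.77 and 4.91 TPM, of which the 182-base model Nr4a2-204 supplied 1.73 and 2.78 TPM from 5 and 8 estimated counts. The alignment-based tables gave that model 0.

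The kinases and transcription factors known to drive NR4A genes were present throughout. All 18 on that list were detected and 14 had at least 5 TPM in both libraries, and their median was 10.5 TPM. Of all 22028 protein-coding genes, 8810 were detected and 4907 had at least 5 TPM in both libraries. Mef2a, which encodes a MADS-box factor, had 83.0 and 61.5 TPM, and its paralog Mef2c 60.8 and 38.1 TPM. Creb1, whose product binds the element named above, had 56.7 and 37.5 TPM. Crtc2, which encodes a coactivator of CREB, had 38.6 and 34.9 TPM. Each of these 4 genes lay between Nr4a1 and Nr4a3 in both libraries.

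**Figure D1:**
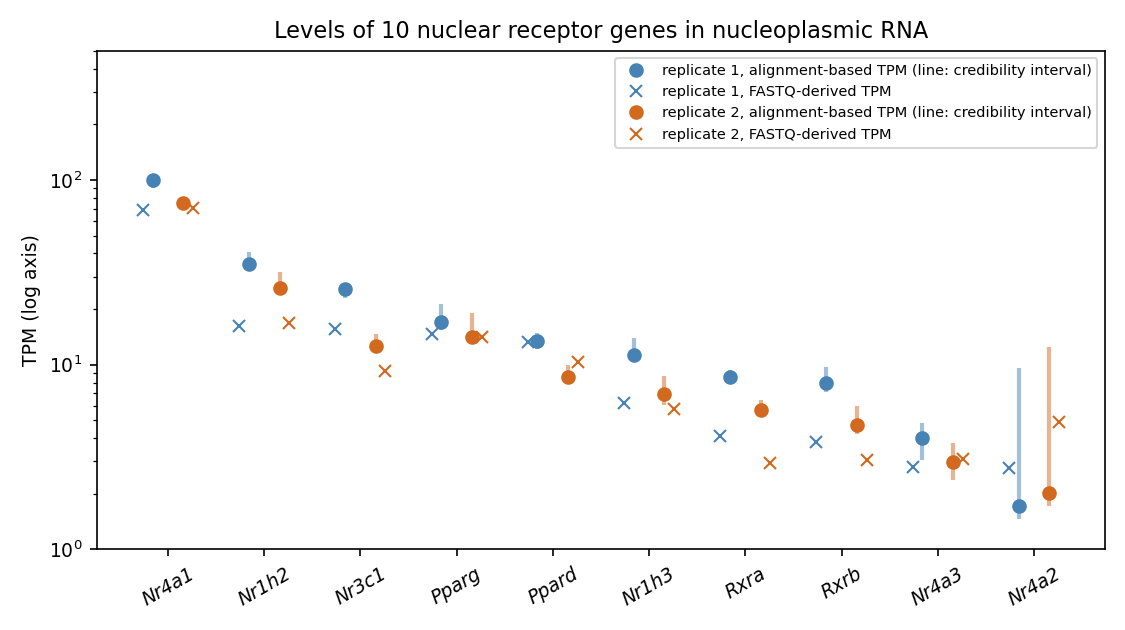
TPM (log axis) of the 10 receptor genes in each library, ordered by mean alignment-based TPM. Filled circles are alignment-based values with the deposited credibility interval as a line, and crosses are FASTQ-derived values. Nr4a1 lies above all others in both libraries and both estimates, and the interval of Nr4a2 reaches from 1.72 to 12.4 TPM in replicate 2.

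All 10 genes were detected, meaning at least 1 TPM in both libraries, as were 40.0% of the 22028 protein-coding genes. All 10 were detected in the FASTQ-derived tables too, as were 9127 of the 22028 protein-coding genes. With the stricter limit of 5 TPM, 7 of the 10 remained, beside 4907 of the 22028 protein-coding genes. Rxrb, Nr4a3 and Nr4a2 fell below it in at least 1 library. The median level of the 10 was 10.1 TPM, and 6 lay above the median detected gene. By mean TPM the order was Nr4a1, Nr1h2, Nr3c1, Pparg, Ppard, Nr1h3, Rxra, Rxrb, Nr4a3 and Nr4a2. The ranges of the libraries overlapped between Nr3c1 and Pparg, Ppard and Nr1h3, Nr1h3 and Rxra, and Rxra and Rxrb. Across the libraries those neighbours thus did not differ beyond their spread. Within each library, alignment-based TPM gave the order Ppard, Nr1h3, Rxra and Rxrb, while Nr3c1 and Pparg changed places. Within replicate 1 the order was the same in both kinds of table. Within replicate 2 Pparg stood above Nr3c1 in both kinds, and the FASTQ-derived table also put Ppard above Nr3c1, and Nr4a2 and Nr4a3 above Rxrb and Rxra. By mean FASTQ-derived TPM, Nr4a2 at 3.84 stood above Rxra at 3.54, Rxrb at 3.42 and Nr4a3 at 2.94, although the ranges of neighbours in that order overlapped. The FASTQ-derived means of Nr1h2 and Nr1h3, 16.5 and 6.00 TPM, were also lower than their alignment-based means of 30.5 and 9.12 TPM.

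Of the liver X receptors, the more abundant was Nr1h2, which encodes the widely expressed LXRβ. Nr1h2 (ENSMUSG00000060601, chr7:44549616-44553951) had 34.95 TPM in replicate 1 and 26.1 TPM in replicate 2. Nr1h3 (ENSMUSG00000002108, chr2:91184061-91202834), which encodes LXRα, had 11.3 TPM in replicate 1 and 6.95 TPM in replicate 2. Nr1h2 was higher in both libraries and the ranges did not overlap. The ratio of Nr1h2 to Nr1h3 was 3.09 and 3.75 (3.42 ± 0.47, SD, n = 2), and 2.59 and 2.91 in the FASTQ-derived tables.

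The 12 listed target genes of the liver X receptors had a median of 16.3 TPM. All were detected, beside 40.0% of protein-coding genes. Apoe, which encodes the lipid carrier apolipoprotein E, had 873 TPM in replicate 1 and 307 TPM in replicate 2. Abca1, the gene of a cholesterol exporter, had 207 and 151 TPM. Pltp, which encodes a phospholipid transfer protein, had 182 and 96.4 TPM. Scd2, a fatty acid desaturase gene, had 23.7 and 27.3 TPM and was the only one of these 4 that was higher in replicate 2. Apoe differed most between the libraries of the 4, also after scaling for library composition, by a log2 ratio of -0.98 for replicate 2 over replicate 1.

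Pparg was the higher of the pair of PPAR genes by TPM. Pparg (ENSMUSG00000000440, chr6:115360951-115490399), the PPAR known for its role in alternatively activated macrophages and fat cells, had 17.0 TPM in replicate 1 and 14.1 TPM in replicate 2. Ppard (ENSMUSG00000002250, chr17:28232700-28301474), which encodes the broadly expressed PPARδ, had 13.4 TPM in replicate 1 and 8.61 TPM in replicate 2. The ratio of Ppard to Pparg was 0.79 and 0.61. Pparg was higher in both libraries, and the ranges did not overlap. By expected counts, which are not corrected for length, Ppard had 828 and 713 and Pparg 609 and 698, so the order of this pair rests on the length correction. The remaining PPAR gene, Ppara, had 0 counts in both libraries.

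Of 12 listed PPAR target genes 9 were detected, beside 40.0% of protein-coding genes, and the median over all 12 was 9.14 TPM. Lpl, which encodes lipoprotein lipase, had 147 TPM in replicate 1 and 127 TPM in replicate 2. Fabp4, the gene of a fatty acid binding protein shared by macrophages and adipocytes, had 181 and 92.0 TPM. The lipid droplet gene Plin2 had 106 and 76.7 TPM, and Cd36, the gene of a scavenger receptor, 64.8 and 38.1 TPM. Among those not detected, Angptl4, which encodes a lipase inhibitor, had 0.61 and 0.19 TPM, and Pdk4, which encodes a pyruvate dehydrogenase kinase, was listed at 0 in both libraries.

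Pparg has alternative promoters whose products differ at the amino terminus, so its start regions are shown. Models of 475 codons encode PPARγ1 and a model of 505 codons encodes PPARγ2, known as the adipocyte form. The RefSeq windows below are cut as above (GRCm38.p6, plus strand), at chr6:115360894-115361193, chr6:115362099-115362398 and chr6:115421816-115422115. Capitals mark AGGTCA, the hexamer bound by many nuclear receptors, and TATAAA, in either orientation.
Pparg start 1: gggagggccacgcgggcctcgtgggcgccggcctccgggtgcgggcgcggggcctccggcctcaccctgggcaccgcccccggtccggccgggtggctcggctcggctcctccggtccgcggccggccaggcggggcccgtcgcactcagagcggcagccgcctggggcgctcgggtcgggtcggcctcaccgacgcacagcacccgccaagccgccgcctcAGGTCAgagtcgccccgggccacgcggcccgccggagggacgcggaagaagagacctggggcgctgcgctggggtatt
Pparg start 2: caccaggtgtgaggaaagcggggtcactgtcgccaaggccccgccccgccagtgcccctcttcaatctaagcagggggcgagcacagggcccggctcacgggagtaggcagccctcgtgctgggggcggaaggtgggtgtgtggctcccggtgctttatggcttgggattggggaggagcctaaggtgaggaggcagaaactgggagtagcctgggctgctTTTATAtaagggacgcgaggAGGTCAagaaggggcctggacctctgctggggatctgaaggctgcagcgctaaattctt
Pparg start 3: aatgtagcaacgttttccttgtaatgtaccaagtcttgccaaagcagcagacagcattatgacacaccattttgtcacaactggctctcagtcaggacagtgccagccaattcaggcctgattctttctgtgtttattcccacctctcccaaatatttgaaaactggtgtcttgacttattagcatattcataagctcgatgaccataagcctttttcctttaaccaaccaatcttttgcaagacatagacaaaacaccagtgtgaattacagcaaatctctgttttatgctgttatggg

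AGGTCA was present once in the first window, at -28, and once in the second, at -9, on the strand shown, while the third held none. Of all promoter windows, 16.2% held these letters. TATAAA was in the second window, at -29 on the other strand, and TGACG was in none of the 3. Pparg-202 starts 193 bases before the first RefSeq start and Pparg-204 57 bases before the second. The matches at -28, -9 and -29 therefore lie after the starts of these models and not upstream of them. The short models Pparg-206 and Pparg-203 start after the matches of the second window. The longer element AAAGGTCA, which contains AGGTCA and is bound by NR4A monomers, was in none of the 6 windows shown and in 1.52% of all windows. GGGCGG, the GC box, which is not in capitals, was in all 3 NR4A windows, in the first and second Pparg windows and in 35.9% of all windows.

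The full-length Pparg signal came from models that start at the first and second of these sites. Pparg-202, which starts 193 bases upstream of the first RefSeq start, had 9.99 TPM in replicate 1 and 7.92 TPM in replicate 2. Pparg-204, which starts 57 bases upstream of the second, had 4.04 and 5.64 TPM. Pparg-201, the model of 505 codons that starts at the third, had 0.76 TPM in replicate 1, with an interval of 0.04 to 2.59, and was listed at 0 in replicate 2, with an interval reaching 1.52. Models of 475 codons therefore held 94.9% and 100% of the full-length TPM of Pparg, and 84.2% and 90.1% by the FASTQ-derived tables, where Pparg-201 had 1.09 and 0.67 TPM. The adipocyte form was thus the minor one in each library and each estimate.

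The genes of the partner receptors were each lower, within each library, than Nr1h2, Nr1h3, Pparg and Ppard by TPM. Rxra (ENSMUSG00000015846, chr2:27676440-27762957) had 8.61 TPM in replicate 1 and 5.67 TPM in replicate 2. Rxrb (ENSMUSG00000039656, chr17:34031812-34038399) had 7.95 TPM in replicate 1 and 4.70 TPM in replicate 2. The ranges overlapped, and the ratio of Rxrb to Rxra was 0.92 and 0.83. By FASTQ-derived TPM the same ratio was 0.92 and 1.03, so its direction differed between those libraries. The summed level of the 4 LXR and PPAR genes was 4.63 and 5.38 times that of Rxra and Rxrb, and 6.31 and 7.85 times in the FASTQ-derived tables. The place of Rxra below the LXR and PPAR genes rests on the length correction. By expected counts Rxra had 846 and 759, against 799 and 797 for Nr1h2, and stood above Nr1h3, Pparg and Ppard in both libraries. Rxrb, with 273 and 235, was below all 4 LXR and PPAR genes by counts too. The ratio of Rxrb to Rxra by counts was 0.32 and 0.31.

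Nr3c1 (ENSMUSG00000024431, chr18:39410545-39519421) was the third of the 10 genes by mean level. It had 25.65 TPM in replicate 1 and 12.6 TPM in replicate 2, the largest ratio between the libraries among the 10 genes by alignment-based TPM. Of 9 listed genes of receptor chaperones and hormone activation 6 were detected, beside 40.0% of protein-coding genes. The heat shock protein genes Hspa8, Hsp90ab1 and Hsp90aa1 had 229 and 141, 68.1 and 48.2, and 37.0 and 32.1 TPM. The cochaperone gene Stip1 had 14.6 and 12.01 TPM. The 3 not detected in both libraries were Fkbp5, which encodes a cochaperone that dampens hormone binding, at 0.62 and 0.83 TPM, the cochaperone gene Dnajb1 at 0.94 and 1.12 TPM, and Hsd11b1, the gene of the enzyme that regenerates active glucocorticoid. Hsd11b1 had 0 counts in replicate 1 and 1 count in replicate 2. By FASTQ-derived TPM 7 of the 9 were detected, Fkbp5 among them.

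Of 12 listed glucocorticoid target genes 8 were detected, beside 40.0% of protein-coding genes, and the median over all 12 was 10.1 TPM. The phosphatase gene Dusp1 had 559 TPM in replicate 1 and 321 TPM in replicate 2, and Zfp36, whose product destabilises cytokine mRNAs, had 425 and 276 TPM. Both are also immediate-early genes of Toll-like receptor signalling. Mertk, which encodes a receptor for apoptotic cells and is also on the macrophage marker list, had 113 and 96.0 TPM, and Anxa1, the gene of annexin A1, 78.0 and 62.0 TPM. The 4 not detected were Fkbp5, Zbtb16, Klf9 and Cd163, which ranged from 0.48 to 1.04 TPM. By FASTQ-derived TPM 9 of the 12 were detected: Fkbp5, at 1.85 and 1.78 TPM, and Cd163, at 2.10 and 1.15 TPM, passed, while Ddit4, at 0.75 and 0.73 TPM, did not.

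Proteins through which nuclear receptors repress or activate genes were nearly all represented. The 13 listed corepressor genes had a median of 11.4 TPM. All were detected, beside 40.0% of protein-coding genes. Ncor1, which encodes a scaffold of the repressor complex, had 79.7 TPM in replicate 1 and 70.7 TPM in replicate 2. The deacetylase gene Hdac1 had 55.4 and 48.1 TPM, and the scaffold gene Sin3b 24.0 and 18.9 TPM. Of 14 coactivator genes 13 were detected, beside the same 40.0%, and the median over all 14 was 15.2 TPM. The highest were Ncoa4 at 48.4 and 25.4 TPM, Ncoa3 at 26.0 and 18.1, Ncoa6 at 25.1 and 17.6, and Ncoa2 at 23.3 and 15.1. Ppargc1a, which encodes the coactivator PGC-1α, was the exception, at 0.05 and 0.27 TPM. By FASTQ-derived TPM 12 of the 14 were detected.

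**Figure D2:**
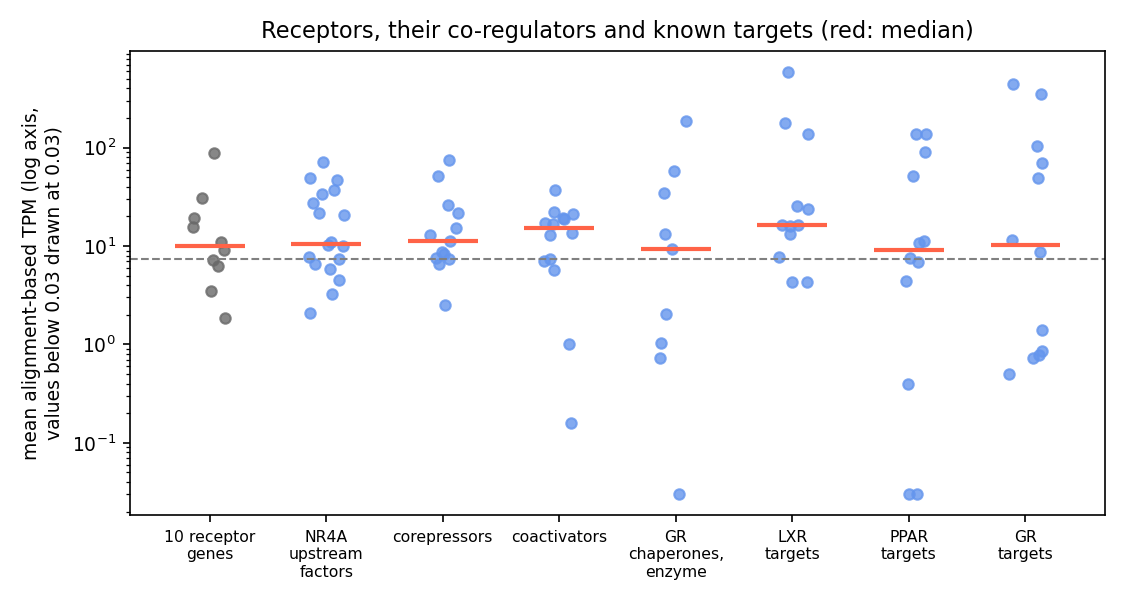
Mean alignment-based TPM (log axis) of the 10 receptor genes and of the genes on 7 lists, 1 point a gene, spread sideways for visibility. Red bars are medians over all genes of a list, and the dashed line is the median detected protein-coding gene at 7.42 TPM. The LXR target list has the highest median, 16.3 TPM, and the coactivator, PPAR target, glucocorticoid target and chaperone lists reach down to genes below 1 TPM.

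Set against the other nuclear receptor genes by alignment-based TPM, the 10 held most of the signal. They made up 67.1% of the summed TPM of the 49 genes in replicate 1 and 70.9% in replicate 2, and 7 of them were among the 10 highest. Of the 49 genes 23 were detected and 18 had 0 counts in both libraries. Of all 22028 protein-coding genes, 8810 were detected and 7403 had 0 counts. Only 1 gene outside the 10 came between Nr4a1 and Nr1h2 by mean, the clock-linked repressor gene Nr1d2, at 43.1 TPM in replicate 1 and 22.2 TPM in replicate 2. The orphan receptor genes Esrra, at 14.6 and 9.66 TPM, and Nr2c2, at 13.9 and 8.68 TPM, stood between Pparg and Ppard. The retinoic acid receptor gene Rara had 6.38 and 4.86 TPM. The FASTQ-derived tables differed over Esrrg, an orphan receptor gene with 0 counts by alignment, to which they gave 58.8 and 84.1 TPM. Nr4a1 had 69.0 and 70.7 TPM there, so Esrrg stood above it in replicate 2. By that estimate the 10 genes made up 53.1% and 50.4% of the 49, and 67.3% and 72.1% with Esrrg left out.

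**Figure D3:**
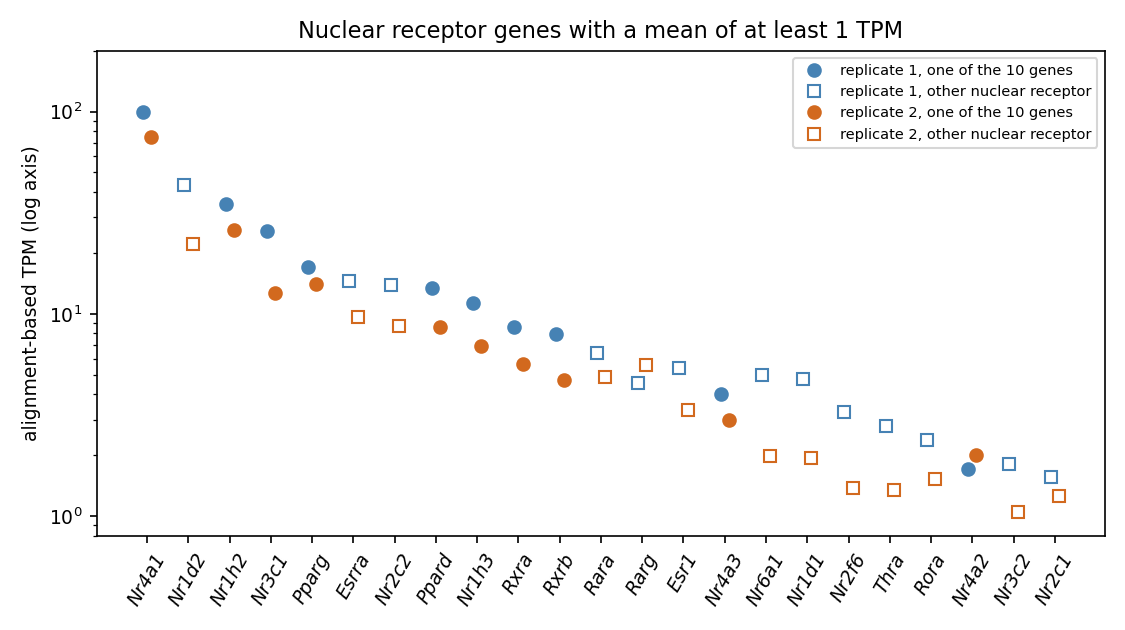
Alignment-based TPM (log axis) in each library of the 23 nuclear receptor genes with a mean of at least 1 TPM, in order of the mean. Filled circles are the 10 genes described here and open squares are other nuclear receptors. Nr1d2, at 43.1 and 22.2 TPM, is the highest of the others.

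Nuclear RNA can hold unfinished and alternative transcripts, so each gene's level was divided among its annotated models. For 7 of the 10 genes the leading model by TPM was the same in both libraries, and for 4 of these it was also the same in the FASTQ-derived tables. For Rxra, Rxra-201 held 97.0% of the TPM in replicate 1 and 100% in replicate 2, and 81.1% and 85.6% in the FASTQ-derived tables. For Nr4a1, the full-length coding model Nr4a1-201 held 75.4% and 78.0% of the TPM and 93.6% and 93.3% of the expected counts. Nr4a1-202, which starts at an upstream site, held 0.41% and 0.60% of the TPM, and 1.65% and 0.80% in the FASTQ-derived tables.

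A second part of Nr4a1 lay in intronic sequence. Nr4a1-204, a retained-intron model of 893 bases of which 654 lie outside the exons of the full-length models, had 13.2 TPM in replicate 1 and 11.9 TPM in replicate 2. It took 13.3% and 15.8% of the gene's TPM. Nr4a1-203, a model of 344 bases of which 176 lie outside those exons, had 10.9 TPM in replicate 1 and 4.18 TPM in replicate 2. In the FASTQ-derived tables the same model had 29.3 and 34.6 TPM, 42.5% and 48.9% of the gene's TPM. By estimated counts in those tables it held 6.33% and 5.74%. For Nr4a1-201 the FASTQ-derived levels were lower than the alignment-based ones, at 31.6 and 28.7 TPM against 75.3 and 58.4 TPM.

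Models of the retained-intron type held 16.6% of the summed TPM of the 10 genes (17.3% and 15.9%). Of the 10 genes 6 have such a model, and in these it held 19.8% of the summed TPM, against 35.1% over all such protein-coding genes outside the mitochondrial genome. Per gene, the median share was 27.6% over the 6 and 26.0% over 5736 detected protein-coding genes with such a model. Both liver X receptor genes were among the 6, and several of their retained-intron models carry whole introns inside the coding region. The splice sites of 3 of these introns are shown, from GENCODE M21 transcripts on mm10, minus strand, 15 bases to each side of the exon edge. Capitals mark the first bases of the intron at the donor and its last bases at the acceptor. The windows lie at chr2:91190724-91190753 and chr2:91190627-91190656 for intron 5 of Nr1h3-201 (97 bases), at chr2:91190447-91190476 and chr2:91190270-91190299 for its intron 6 (177 bases), and at chr7:44552492-44552521 and chr7:44552231-44552260 for intron 4 of Nr1h2-201 (261 bases).
Nr1h3 intron 5 donor: cgcctgcgcgtcacgGTacttgacccgggg
Nr1h3 intron 5 acceptor: gcccaccttgggtAGccttggcccattgca
Nr1h3 intron 6 donor: acctctgcaatcgagGTggctggaaaggga
Nr1h3 intron 6 acceptor: gctgcttgtgtgcAGgtcatgcttctggag
Nr1h2 intron 4 donor: ctgcctacatcgtggGTgagatggggagac
Nr1h2 intron 4 acceptor: tctgctcaccccaAGtcatcttagagccag

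All 3 introns begin with GT and end with AG, the usual pair. Nr1h3-208 keeps both introns of Nr1h3 and had 5.56 TPM in replicate 1, with an interval of 3.90 to 5.94, and 0.98 TPM in replicate 2, with an interval of 0.38 to 1.60. It led the gene in replicate 1 with 49.2% of its TPM, while in replicate 2 it held 14.1% and the coding model Nr1h3-201 led with 36.4%. Nr1h3-205, which keeps intron 6 alone, was listed at 0 in replicate 1 and had 1.00 TPM in replicate 2. Taken over all its retained-intron models, Nr1h3 had a share of 49.2% and 41.0%, which differed less between the libraries than the share of Nr1h3-208 alone. No 31-base word of Nr1h3-208 is absent from the gene's other models, so its level rests on combinations of shared sequence. Nr1h2-205, which keeps intron 4 of Nr1h2, had 4.93 and 1.82 TPM. The share of all retained-intron models of Nr1h2 was 25.7% and 21.6%.

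The leading model of Nr1h2 by TPM was neither full-length nor of the retained-intron type. Nr1h2-212, a 544-base model annotated as coding of which 455 bases lie outside the exons of the full-length models, had 10.04 TPM in replicate 1 and 7.56 TPM in replicate 2. It held 28.7% and 29.0% of the gene's TPM, from 73 and 68 expected counts, and it led in the FASTQ-derived tables as well. Of its 31-base words, 88.1% occur in no other model of the gene, so most of its sequence can be told from that of the other models. By expected counts it held only 9.14% and 8.53%.

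Ppard had a large part in intronic sequence. Ppard-208, a single-exon model of 3726 bases of which 3571 lie outside the exons of the full-length model, had 4.67 TPM in replicate 1 and 3.02 TPM in replicate 2, or 34.9% and 35.1% of the gene. The coding model Ppard-201 led with 47.9% and 51.8%. In the FASTQ-derived tables Ppard-204, a 417-base model wholly outside those exons, led with 35.9% and 38.6%, against 6.57% and 8.59% by alignment. Models that lie mostly outside full-length exons, of whatever type, held 41.4% and 43.7% of Ppard by alignment and 53.5% and 58.6% in the FASTQ-derived tables. For Nr4a1 they held 24.2% and 21.4% by alignment and 52.6% and 58.6% in the FASTQ-derived tables. These are shares of TPM. By expected counts such models held 43.2% and 43.1% of Ppard, but only 5.83% and 5.95% of Nr4a1. By FASTQ-derived counts they held 12.2% and 11.8% of Nr4a1. Over all 10 genes such models numbered 12 and held 19.8% and 17.7% of the TPM by alignment, and 36.6% and 40.8% in the FASTQ-derived tables. Their share of counts was 7.12% and 6.61% by alignment, and 10.6% and 10.4% in the FASTQ-derived tables. No such share over all genes is given here. The origin of these reads was not tested.

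The remaining genes were less settled. Rxrb was led by Rxrb-202 at 38.2% and 51.2%, with 38.2% and 24.7% in retained-intron models. The retained-intron share of Pparg was 10.8% and 1.91% by alignment and 28.8% and 25.3% in the FASTQ-derived tables. For Nr4a3, models of the processed-transcript type held 58.2% of the TPM in replicate 1 and 36.6% in replicate 2, but 18.4% and 8.5% of the expected counts. For Nr3c1, the full-length model Nr3c1-203 had 4.44 TPM in replicate 1 and 0.55 TPM in replicate 2, and the full-length Nr3c1-204 had 5.32 and 6.52 TPM. In the FASTQ-derived tables Nr3c1-203 had 3.09 and 0.53 TPM and Nr3c1-204 had 0.52 and 2.50 TPM, so their order differed between those libraries. The shorter Nr3c1-208, of 1891 bases, had 11.3 and 5.05 TPM. None of the 31-base words of Nr3c1-204 is unique to it, so its separation from Nr3c1-203 rests on shared sequence.

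**Figure D4:**
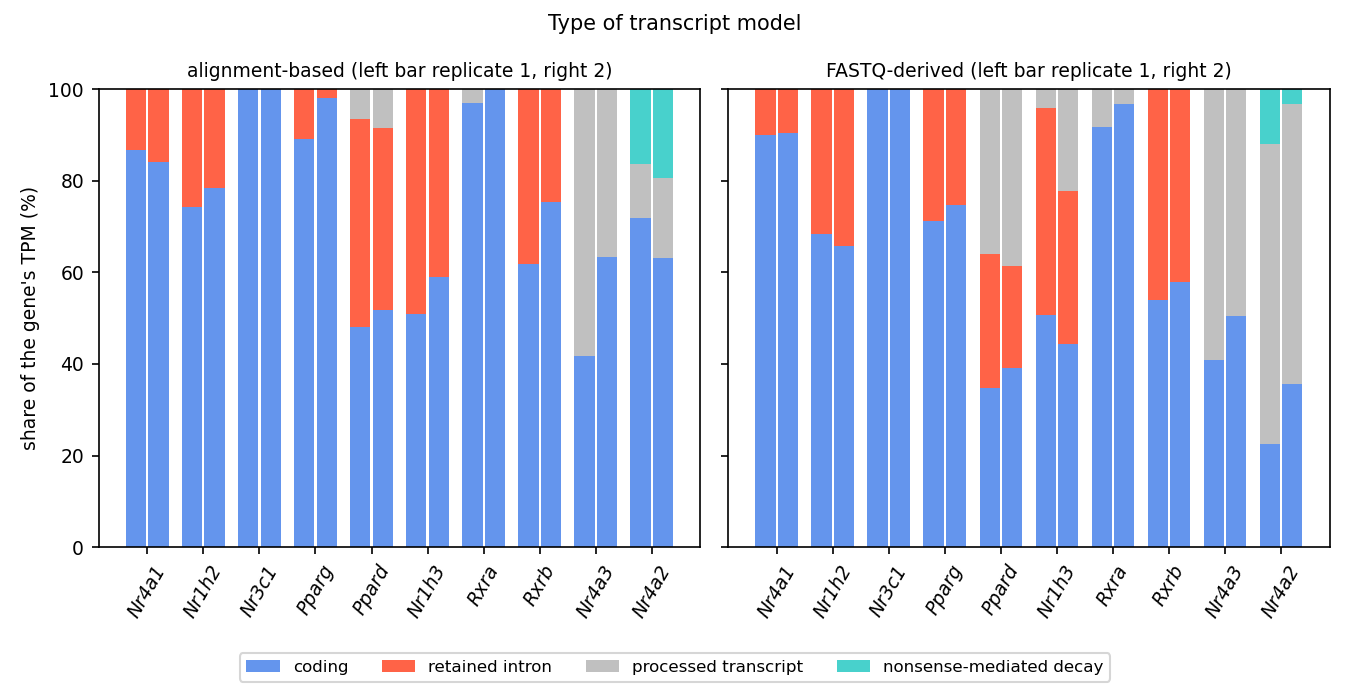
Share of each gene's TPM (%) in transcript models of 4 annotated types, for replicate 1 (left bar) and replicate 2 (right bar), by alignment-based TPM (left panel) and FASTQ-derived TPM (right panel). The retained-intron share of Nr1h3 is 49.2% and 41.0% by alignment, that of Ppard 45.4% and 39.6%, and Nr4a2, Nr4a3, Rxra and Nr3c1 have no model of this type.

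Little of the sequence of the 10 genes is shared with other genes. The share of a gene's 31-base words found in transcripts of other genes was 0 for Nr4a1, Nr1h2, Rxra and Rxrb and at most 0.61%, in Ppard. Pparg overlaps the antisense gene Gm44079, which had 2 and 0 counts. Nr1h3 overlaps Gm13783 on the same strand, which had 21 and 14 counts against 407 and 279 for Nr1h3. The strand setting of the counting is not given in the sources used here.

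The libraries were compared last, as the ratio of replicate 2 to replicate 1, with 1 library on each side and so no test. On counts per library size after TMM scaling (scaled CPM), the median log2 ratio of the 10 genes was 0.02. That of 11348 protein-coding genes was 0.02 too, and their ratios had an SD of 0.44. The 10 listed macrophage markers had a median of -0.34, and 8 of these markers were lower in replicate 2. Of the 10 receptor genes 1, Nr4a2, passed 0.5 in size, at 0.52 with a counting SE of 0.18, beside 16.2% of protein-coding genes. The next were Nr4a3 at 0.46 (SE 0.13), Nr1h3 at -0.44 (SE 0.11) and Pparg at 0.29 (SE 0.08). The abundant Nr4a1 was at 0.14 (SE 0.03). All 3 NR4A genes were above 0 on this scale, as were Pparg and Nr1h2, the latter at 0.09. The other 5 of the 10 genes were lower in replicate 2, as were 5421 of the 11348 protein-coding genes.

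TPM gave another picture, shared by nearly all genes. By TPM, 9 of the 10 genes were lower in replicate 2, with a median log2 ratio of -0.52, and so were 91.8% of the detected protein-coding genes, with a median of -0.49. Protein-coding genes took 31.2% of the TPM in replicate 1 and 22.6% in replicate 2. Nr3c1 stood lowest of the 10 genes by TPM, at -1.02. With TPM rescaled to protein-coding genes it was still lowest, at -0.55, and Nr4a2 was highest, at 0.70. The CPM ratio of Nr3c1 was -0.16. Its effective length, which depends on how its reads are assigned to models, was 0.35 higher in replicate 2 on the log2 scale. The credibility intervals of the libraries did not overlap for 7 of the 10 genes, beside 50.1% of detected protein-coding genes. The exceptions were Pparg, Nr4a3 and Nr4a2.

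**Figure D5:**
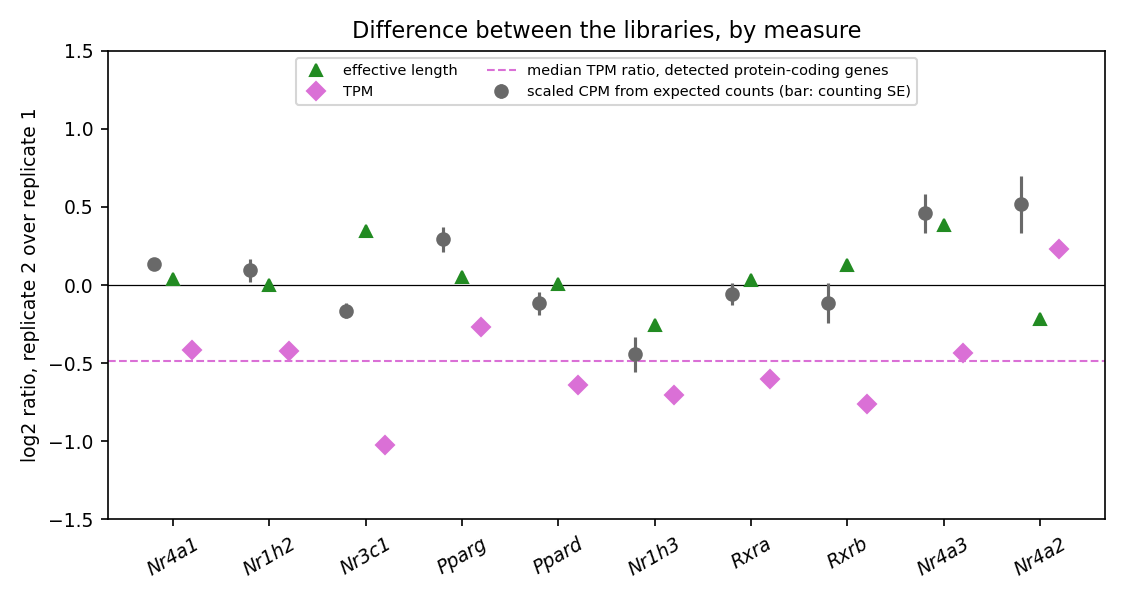
Log2 ratio of replicate 2 over replicate 1 for each gene, by TMM-scaled CPM (circles, bars are the counting SE), effective length (triangles) and TPM (diamonds). The dashed line is the median TPM ratio of detected protein-coding genes, -0.49. Nr3c1 has a TPM ratio of -1.02 and a CPM ratio of -0.16, and Nr4a2 is the only gene with a TPM ratio above 0.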

How the data were processed

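Total RNA-seq was analysed from 2 libraries of 1 group. The authors deposited expected counts per gene and per transcript model from an alignment to the transcriptome (build mm10 and annotation GENCODE M21, per a text file that the authors deposited beside them), and estimated counts per model from the FASTQ files. The authors' TPM is scaled to 1 total over every feature and corrected for effective length. Other deposited values used are a posterior mean TPM and the bounds of its credibility interval, per the file headers. The sources used here do not give the aligner, the quantifiers, their versions or the strand setting.

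Expected counts were rounded for edgeR 4.0.16 (R 4.3.3). Replicate 2 was set over replicate 1 as a log2 ratio of CPM after TMM scaling (prior count 2), for genes that averaged at least 10 expected counts, and this step was checked on simulated counts. All other values were computed in Python 3.11.15 from the deposited tables. FASTQ-derived gene levels are sums over models. Genes were matched by GENCODE M21 name, and promoters by symbol in RefSeq (GRCm38.p6). A model base counted as outside full-length exons when it lay in no exon of the gene's models with at least 90% of the longest coding length. SD is over both libraries, and counting SEs and credibility intervals cover counting and read assignment within 1 library only, not molecules or animals.

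The 10 genes, the 16 lists (174 entries, all found) and the motifs were chosen with earlier results of these data known. All 10 genes are given in full. Of each other list, up to 4 genes of highest mean TPM are named, and any gene that the text counts in 1 to 3. Some listed genes are counted but not reported by name here. The GR target genes not detected, the listed-at-0 markers, Cd4, Kdr, Esrrg and Ddit4 were named after their values were seen. Alternatives changed the table, the TPM estimate, thresholds, scaling, filter, prior count and pseudocount, and left out each library.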

Additional observations from a re-analysis of the deposited data

How the results depend on the processing

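Over 56 results and 244 alternatives, 176 values were labelled unchanged and 68 moved. For levels, shares and TPM ratios, moved means by more than the spread between the libraries. Replicate ratios and counts of detected genes have no such spread and were labelled by other limits. RLE size factors, no scaling beyond library size, other count filters and a prior count of 0.5 left all replicate ratios labelled unchanged. Leaving out either library could not move a level, share or TPM ratio past the spread, by construction, with 2 libraries. FASTQ-derived TPM changed the mean ratio of Nr1h2 to Nr1h3 to 2.75, of Rxrb to Rxra to 0.98, of Nr4a1 to Nr4a2 to 19.6 and of Nr4a1 to Nr4a3 to 23.8, and the posterior mean TPM gave 17.6 and 24.0 for the last pair of ratios. By share of expected counts, retained-intron models held 10.1% of the 10 genes. The median log2 ratio of replicate 2 over replicate 1 was -0.47 from TPM with a pseudocount of 1 and -0.51 with 0.1, against 0.02 from scaled CPM, so its direction turned, as it did for protein-coding genes as a whole. With a pseudocount of 1 it also turned for Nr4a1 (-0.41), Nr1h2 (-0.41), Pparg (-0.25) and Nr4a3 (-0.33), while Nr4a2, the only ratio past 0.5 in size on the CPM scale, was at 0.15. FASTQ-derived TPM moved 5 of 10 levels and 8 of 10 leading-model shares, and a rescaling of TPM to protein-coding genes raised all 10 levels. Over protein-coding genes that averaged 10 or more expected counts, the detected share was 77.6%. The cause was not tested.

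Of the receptor genes described, Nr4a2 had the fewest expected counts, 110 in replicate 1 and 148 in replicate 2. Its model Nr4a2-204 had 0 expected counts in both libraries. The credibility interval of that model still reached 7.72 TPM in replicate 1 and 10.3 TPM in replicate 2. Whether depth or the division of reads among models widened the interval of Nr4a2 was not tested. No paired analysis was possible because there was 1 group.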
